A study of Homo sapiens with 12 samples.

Results

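The cathepsins and cystatins on this array were followed through 3 head and neck cancer cell lines, each as a subline selected for invasion and as its parent. The members were all probe sets whose sole gene symbol in the platform annotation was CTSL, CTSV, CTSB, CTSC, CTSH, CTSD, CSTA, CSTB, CST3 or CST6. This gave 13 probe sets of 10 genes, among 22283 probe sets on the array and 11963 genes with a probe set of their own. CTSB had 4 probe sets and each of the other genes had 1. All 13 passed the filter on dim probe sets, which kept 15124 probe sets with at least 2 arrays above a log2 value of 4.52 (the 40th percentile of all values).

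The 6 groups were the Detroit invasion subline, the Detroit parent, the Fadu invasion subline, the Fadu parent, the OECM1 invasion subline and the OECM1 parent, with 2 arrays in each. Per the labels, sublines came from a Matrigel invasion method meant to yield highly invasive cells, and no drug, gene alteration or time point is named for any group. Matrigel is a basement membrane extract that cells must degrade or squeeze through. Fadu came from a squamous cell carcinoma of the hypopharynx and OECM1 from one of the gum. The labels call the other line only Detroit. Each subline stands for 1 selection from 1 line, so subline and line cannot be separated from the history of that selection. The labels do not say whether the duplicates were separate cultures, so the p-values reflect the spread between samples alone, and that spread may be technical.

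Cathepsins are proteases that mature in the acid of the lysosome and break down proteins there, and some are secreted and cut matrix proteins outside the cell. Most of those measured here (CTSL, CTSV, CTSB, CTSC and CTSH) are cysteine proteases, and CTSD is an aspartic protease. Cystatins are tight-binding protein inhibitors of the cysteine cathepsins: CSTA and CSTB, the stefins, act inside the cell, and CST3 (cystatin C) and CST6 (cystatin M/E) are secreted. In squamous epithelium CSTA is built into the cornified envelope, the cross-linked protein shell of the outermost cells, and CST6 restrains CTSL and CTSV there. A balance between these proteases and inhibitors is widely studied in tumour invasion.

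Upstream sequences were taken from RefSeq (build GRCh38.p14), whose promoter table held 6 of the 10 genes (CTSL, CTSV, CTSC, CTSH, CTSD and CST3). The window was the 250 bases before the transcript start that the table uses, read 5′ to 3′ on the strand of the gene. CTSH is shown because it had the widest difference between parents, and CTSL because it shares a run of bases with its close relative CTSV. Capitals mark matches to any of 5 motifs searched on both strands: the E-box core CACGTG, the GC box GGGCGG, the CCAAT box CCAAT, the AP-1 site TGANTCA and the TATA box TATAAA. No matches overlapped in the windows printed.
CTSH, chr15:78945047-78945296, minus strand: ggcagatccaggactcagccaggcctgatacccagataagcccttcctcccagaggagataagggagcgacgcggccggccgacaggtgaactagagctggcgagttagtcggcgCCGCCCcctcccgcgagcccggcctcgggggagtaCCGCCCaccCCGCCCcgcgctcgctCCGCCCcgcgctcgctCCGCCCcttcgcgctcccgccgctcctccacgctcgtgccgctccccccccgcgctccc
CTSL, chr9:87725869-87726118, plus strand: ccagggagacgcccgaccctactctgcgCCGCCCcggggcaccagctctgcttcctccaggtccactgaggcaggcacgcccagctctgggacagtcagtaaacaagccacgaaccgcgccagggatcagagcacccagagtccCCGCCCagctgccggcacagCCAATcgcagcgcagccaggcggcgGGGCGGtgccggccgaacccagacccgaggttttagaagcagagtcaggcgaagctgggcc
Shared by CTSL (chr9:87726023-87726045, plus strand) and CTSV (chr9:97039206-97039228, minus strand): gccggcacagCCAATcgcagcgc

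Both printed windows lie immediately upstream of the annotated gene span, CTSH at chr15:78921058-78945046 and CTSL at chr9:87726119-87731469. The CTSV start used by the table lies 501 bases inside the gene span, so its window is not shown. The run common to the CTSL and CTSV windows was 23 bases long, held the CCAAT box of both genes, and began 96 bases before the CTSL start and 86 before the CTSV start. A GC box was found in 6 of the 6 windows, against 42.6% of 35116 RefSeq windows of the same length, and CTSH had 5 of them. CCAAT was found in 3 of the 6 (CTSL, CTSV and CTSC, at 86, 76 and 84 bases before the start), against 32.0% of all windows. CACGTG was found in 1 (CTSD, 47 bases before the start), against 6.35%, and the AP-1 and TATA letters in 0, against 6.57% and 10.7%. The CTSH window held 32 CpG dinucleotides and the CTSL window 20, against a median of 11 over all windows. These matches describe the letters only.

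Values are log2 RMA values, which were set on one scale across arrays by the submitters, and array medians lay between 4.92 and 5.06. Epithelial markers averaged between 8.37 and 10.6 per array, with KRT18 at 11.3 to 12.1 and EPCAM at 8.95 to 10.3 by group mean. The basal keratin KRT14 ranged from 3.95 to 10.5 between groups. Leukocyte markers averaged 4.08 to 4.46 per array, and 2 to 3 of 9 were above the dim limit on both arrays of a group. By group mean, AIF1 lay at 5.41 to 5.99, ITGB2 at 3.97 to 5.57 and CD14 at 4.41 to 5.24, while the leukocyte antigen PTPRC lay at 3.52 to 3.73. Fibroblast markers averaged 4.13 to 5.03 per array, the highest value being in the Detroit parent, and 1 to 3 of 6 were above the limit, with the collagens COL1A1 at 5.85 to 6.28 and COL1A2 at 4.60 to 6.92. For endothelial markers, 0 of 4 were above the limit in any group. The part of such cells in the results was not tested.

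Some arrays stood apart. Over all tested probe sets, the root mean square difference of duplicates was 0.873 in the Detroit-labelled subline and 0.743 in the OECM1 parent, against 0.429 to 0.583 in the other 4 groups. For the 13 members these figures were 1.40 and 1.28, against 0.508 to 0.790. The ACTB control, given as its 3′ minus its 5′ probe set, was -0.28 and 0.80 on the Detroit subline arrays and 0.87 and 0.04 on the OECM1 parent arrays. This sign of RNA integrity also differed between duplicates elsewhere: it was 0.06 and 0.63 in the OECM1 subline, -0.05 and 0.40 in the Fadu subline and 0.55 and -0.23 in Fadu parent cells, against -0.03 and -0.10 in the Detroit parent. With this ratio as a covariate, 3 members were called in the Detroit comparison (3 without it) and 3 between the Detroit and Fadu parents (3). Between the Detroit and OECM1 parents 3 were called (2), and 4 between the OECM1 and Fadu parents (3). In the same order, calls over all tested probe sets rose to 685 (457 without it), 537 (347), 572 (497) and 654 (367). Across tested probe sets, the Detroit-labelled subline mean had a correlation of 0.965 with the Fadu parent mean and of 0.893 with that of the Detroit parent, which goes against its label. Its arrays are therefore called the arrays labelled Detroit invasion subline. The cause of this likeness was not tested.

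**Figure D1:**
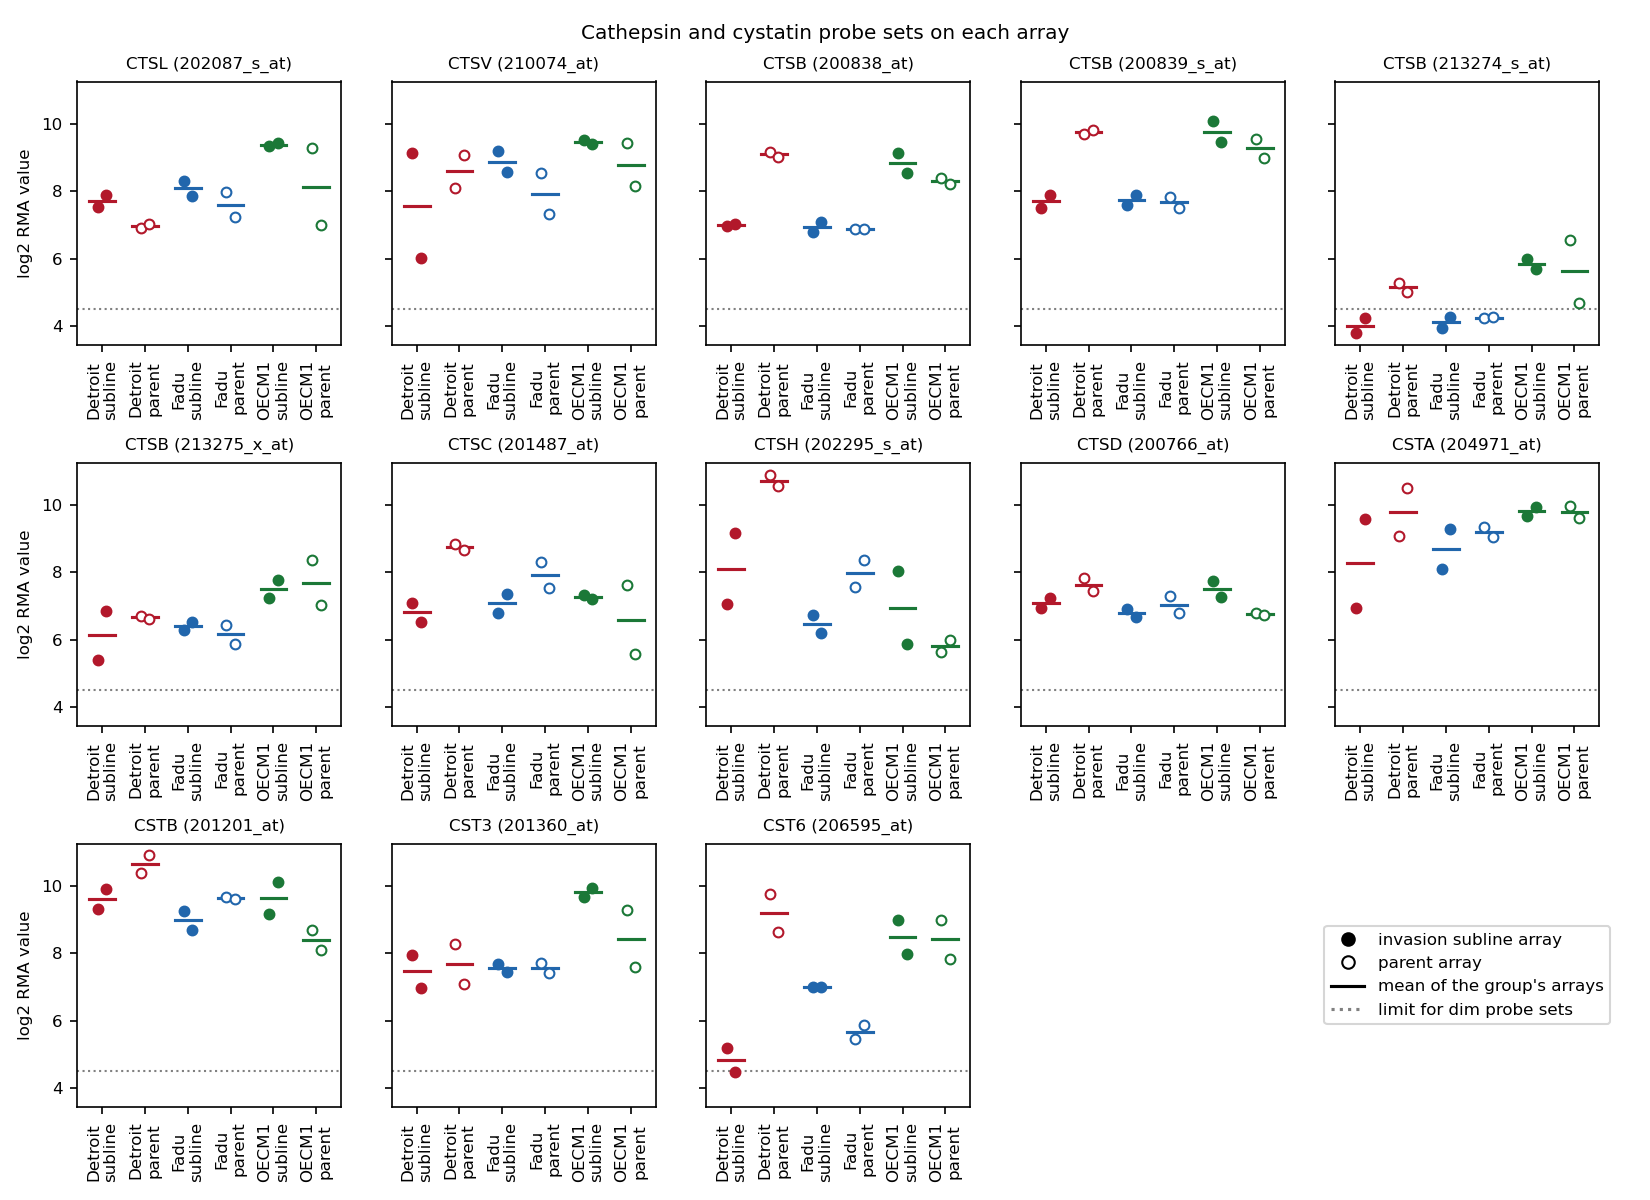
Log2 RMA value of each of the 13 cathepsin and cystatin probe sets on all 12 arrays. Filled points are subline arrays, open points parent arrays, short lines the mean of the 2 arrays of a group, and the dotted line the dim limit of 4.52. CST6 reads 5.21 and 4.47 on the arrays labelled Detroit invasion subline, against 9.75 and 8.62 in the Detroit parent.

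Set against the Detroit parent, the arrays labelled Detroit invasion subline had lower CST6, by 20.3-fold, and lower CTSB, by 4.26-fold and 4.15-fold on its main probe sets. No member was called higher. These were 3 of 13 member probe sets called lower at an adjusted p under 0.05 (limma, Benjamini-Hochberg over all tested probe sets). Of all 15124 tested, 3.02% were called in either direction and 1.72% were called lower. Called or not, 12 of 13 members had differences below 0, with a median of -1.13, against a median of -0.01 and 51.3% below 0 over all tested probe sets.

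CST6, the secreted inhibitor of CTSL, CTSV and legumain, read 5.21 and 4.47 on the arrays labelled Detroit invasion subline, against 9.75 and 8.62 in the Detroit parent. The groups were separated by more than 3 log2 units, and 1 of the subline arrays lay below the dim limit, where RMA compresses differences. The log2 difference was -4.34 (SE 0.52, adjusted p = 0.00127). It stayed called with any single array left out, at -3.78 to -4.91, but not in a fit of only the arrays of these groups (adjusted p = 0.0655). In cultures measured in bulk, fewer cells that make a transcript and less transcript per cell cannot be told apart.

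CTSB, an endopeptidase that also clips dipeptides from the end of proteins, read 6.97 and 7.03 on the arrays labelled Detroit invasion subline, against 9.17 and 9.02 in the Detroit parent (probe set 200838_at). A second probe set, 200839_s_at, read 7.50 and 7.90 on the subline arrays, against 9.70 and 9.80 in the Detroit parent. In both, every subline array lay below every parent array by more than 1.5 log2 units. The differences were -2.09 (SE 0.32, adjusted p = 0.00550) and -2.05 (SE 0.35, adjusted p = 0.0110). The call of 200839_s_at was lost when Detroit parent replicate 1 or 2 was left out (adjusted p = 0.0582 and 0.0508), and both calls ended in a fit of only the arrays of these groups (adjusted p = 0.163 and 0.189).

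The remaining CTSB probe sets were dimmer. Probe set 213274_s_at read 3.80 and 4.24 on the arrays labelled Detroit invasion subline, against 5.28 and 5.03 in the Detroit parent, a difference of -1.13 that was not called (adjusted p = 0.271) but was called when either OECM1 parent array was left out (adjusted p = 0.0361 and 0.0363). Probe set 213275_x_at, whose suffix marks probes that may match other transcripts, read 5.41 and 6.85, against 6.71 and 6.62, so its groups overlapped. Over the 12 arrays the 6 pairs of CTSB probe sets correlated at 0.586 to 0.984, the highest value being that of the main pair.

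CTSH, an aminopeptidase, read 7.07 and 9.16 on the arrays labelled Detroit invasion subline, against 10.87 and 10.55 in the Detroit parent. The subline arrays were both lower but lay over 2 log2 units apart, and the difference of -2.60 (SE 0.74) was not called (adjusted p = 0.0945). CTSC, the dipeptidyl peptidase that activates granule serine proteases in immune cells, read 7.10 and 6.53 on the subline arrays, against 8.84 and 8.66 in the Detroit parent. Its groups did not overlap either, and its difference was -1.93 (SE 0.57, adjusted p = 0.107). Without OECM1 parent replicate 1 or 2, which enter only the shared estimate of the spread, CTSC was called (adjusted p = 0.0272 and 0.0283).

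CSTB, the ubiquitous stefin, read 9.31 and 9.90 on the arrays labelled Detroit invasion subline, against 10.38 and 10.90 in the Detroit parent. Groups did not overlap, and the difference was -1.03 (SE 0.41, adjusted p = 0.238). CTSL was the 1 member above 0, at 7.55 and 7.90, against 6.92 and 7.03, a difference of 0.74 (SE 0.60, adjusted p = 0.678). CTSD differed by -0.54 and CST3 by -0.21, and neither was called.

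CSTA and CTSV differed more between the duplicates of the subline than between the groups. CSTA, a cornified envelope component, read 6.96 and 9.57 on the arrays labelled Detroit invasion subline, against 9.08 and 10.50 in the Detroit parent. CTSV, a cathepsin of epidermis, thymus and testis, read 9.12 and 6.02, against 8.11 and 9.06. Replicate 1 of that subline was the lower array for CSTA and the higher for CTSV, and each difference below rests on 1 subline array. Without replicate 2, CSTA differed by -2.83 and CTSH by -3.64, and without replicate 1, CTSV differed by -2.56.

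**Figure D2:**
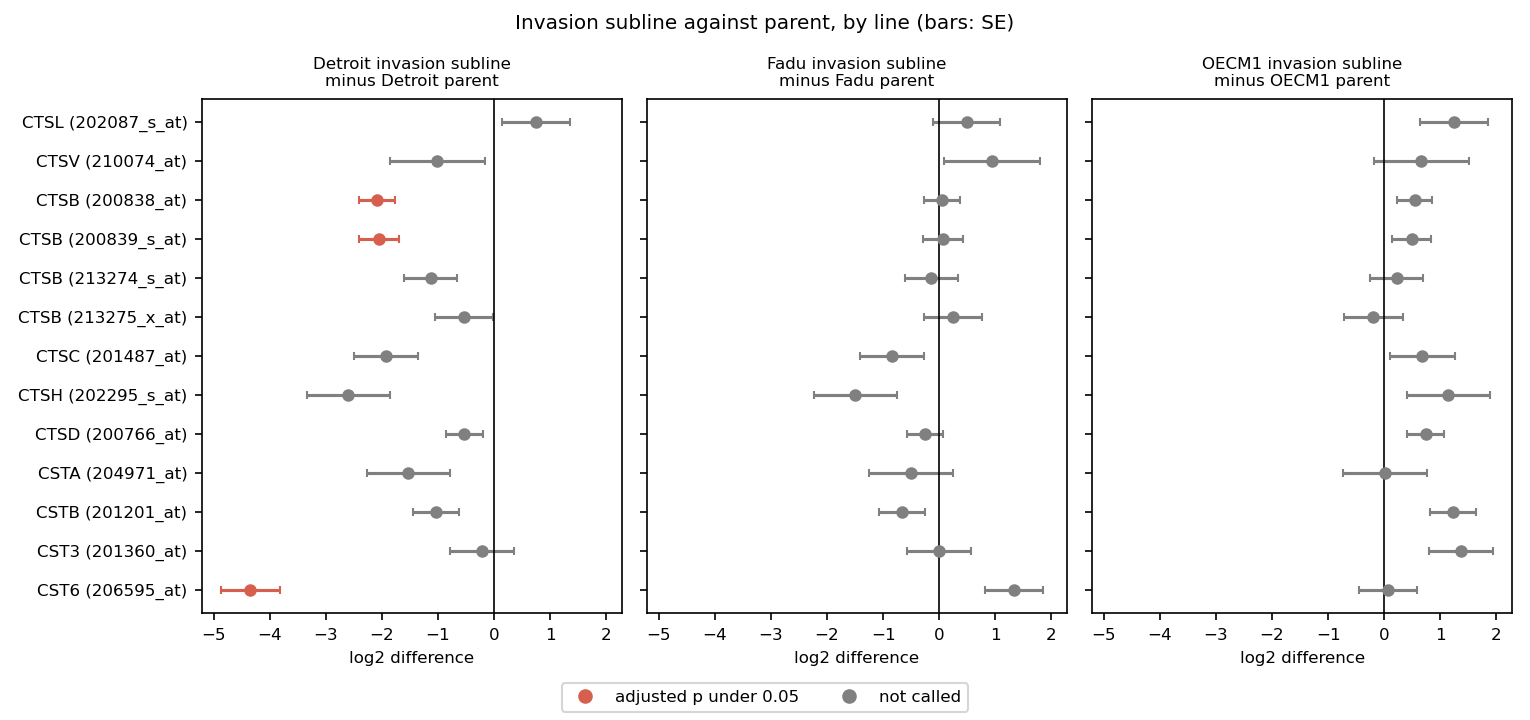
Log2 difference of each member, invasion subline minus parent, in the 3 lines, with bars for the standard error and red points for adjusted p under 0.05. Red points are CST6 and the main CTSB probe sets in Detroit, at -4.34, -2.09 and -2.05, and there is none in Fadu or OECM1.

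All 13 member means on the arrays labelled Detroit invasion subline lay nearer to the Fadu parent than to the Detroit parent, as did 61.1% of all tested probe sets (9236 of 15124). With the OECM1 parent added, 12 of 13 lay nearest to the Fadu parent, and CTSC lay nearest to the OECM1 parent. The root mean square distance over the members was 0.483 from the Fadu parent and 1.86 from the Detroit parent. Over all tested probe sets these distances were 0.435 and 0.753. All these distances share the subline arrays.

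CTSB on 200839_s_at averaged 7.70 ± 0.29 on the arrays labelled Detroit invasion subline and 7.67 ± 0.24 in the Fadu parent (SD, n = 2 each). CSTB averaged 9.61 ± 0.42 on the same subline arrays and 9.64 ± 0.03 in the Fadu parent (SD, n = 2 each). The widest gaps were in CTSC (-1.11), CSTA (-0.93) and CST6 (-0.83). In limma, 0 of 13 members were called in this comparison and 0 had an unadjusted p under 0.05. The background was also 0% called, with 558 of 15124 at an unadjusted p under 0.05. That 0% did not hold in every fit. With the ACTB ratio as a covariate, 5 of 15124 were called and 0 of 13 members. Leaving out subline replicate 1 or Fadu parent replicate 2 also gave calls over all tested probe sets, with none among the members.

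**Figure D3:**
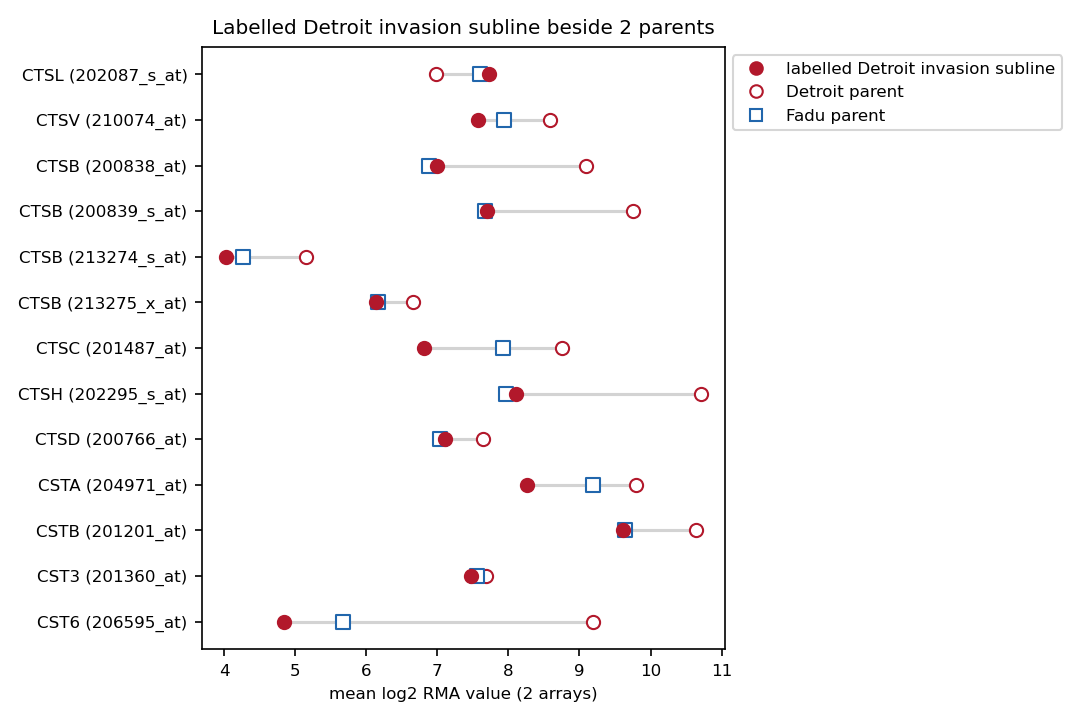
Mean log2 RMA value of each member on the arrays labelled Detroit invasion subline (filled red), in the Detroit parent (open red) and in the Fadu parent (open blue square). A grey line spans the lowest to the highest of these means. The blue square is nearer to the filled point than the open red point is in all 13 rows.

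In Fadu, no member was called, and the members' differences ran in both directions. Between subline and parent means, 7 of 13 probe sets differed by less than 0.5, including all 4 of CTSB, and the root mean square difference was 0.717, against 0.339 over all tested probe sets. Differences were above 0 for 7 of 13, with a median of 0.00, against a median of -0.01 over all tested probe sets. limma called 0 of 13 members, with 1 at an unadjusted p under 0.05, and called 3 of 15124 probe sets (0.0198%). Over all tested probe sets, 265 of 15124 were at an unadjusted p under 0.05. The main CTSB probe sets differed by 0.05 and 0.07, with standard errors of 0.32 and 0.35, and CST3 by 0.00 with a standard error of 0.57.

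CST6 was the member with the smallest unadjusted p in Fadu, at 7.01 and 7.01 in the Fadu subline, against 5.46 and 5.89 in the Fadu parent. The subline duplicates were nearly equal and both above the parent, and the difference of 1.33 (SE 0.52) had an adjusted p of 1. CTSH read 6.73 and 6.21 in the Fadu subline, against 7.58 and 8.36 in the parent, a difference of -1.50 (SE 0.74, adjusted p = 1). CTSC read 6.79 and 7.37, against 8.32 and 7.53 (-0.84), and CTSV 9.18 and 8.57, against 8.55 and 7.32 (0.94). CSTB differed by -0.66 and CSTA by -0.50. Groups did not overlap for 5 of 13 members (CTSH, CTSC, CTSV, CSTB and CST6), against 32.6% of all tested probe sets, a share near the background.

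In OECM1, no member was called. Differences were above 0 for 12 of 13 members, with a median of 0.66, against a median of 0.00 and 50.4% above 0 over all tested probe sets, but without parent replicate 2 only 8 of 13 were above 0, with a median of 0.10. limma called 0 of 13, with CTSD, CSTB and CST3 at an unadjusted p under 0.05, and called 1 of 15124 probe sets (0.00661%). Over all tested probe sets, 498 of 15124 were at an unadjusted p under 0.05. CST3, the secreted cystatin of all body fluids, read 9.67 and 9.94 in the OECM1 subline, against 9.27 and 7.61 in the parent. CTSL, a potent lysosomal endopeptidase, read 9.34 and 9.42, against 9.28 and 6.99. Both subline arrays were high for both genes, and so was parent replicate 1.

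CSTB read 9.15 and 10.10 in the OECM1 subline, against 8.68 and 8.11 in the parent, a difference of 1.23 (SE 0.41, adjusted p = 1.00). CTSD, the aspartic protease, read 7.75 and 7.26 in the subline, against 6.79 and 6.73, a difference of 0.74 (SE 0.33, adjusted p = 1.00). For these the groups did not overlap. The parent duplicates were close for CTSD (SD 0.04) and further apart for CSTB (SD 0.41), whose subline duplicates had an SD of 0.67. CTSH read 8.04 and 5.87 in the subline, against 5.64 and 5.98, so its difference of 1.15 rested on 1 subline array. CST6 differed by 0.07 and CSTA by 0.02.

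The OECM1 shift depended on which parent array it was set against. In the OECM1 parent, 12 of 13 members were higher on replicate 1, by a median of 1.15, while 47.6% of all tested probe sets were higher on it, with a median of -0.04. The ACTB 3′ minus 5′ value was 0.87 on replicate 1 and 0.04 on replicate 2, and its part in this was not tested. Without parent replicate 1, all 13 members were above 0 with a median of 0.97, and CTSL differed by 2.39 (adjusted p = 0.134) and CST3 by 2.20 (adjusted p = 0.279). Without parent replicate 2, CTSL differed by 0.10 and CST3 by 0.53. Leaving out a subline array gave medians of 0.25 (without replicate 1) and 0.75 (without replicate 2). No member was called under any of these.

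**Figure D4:**
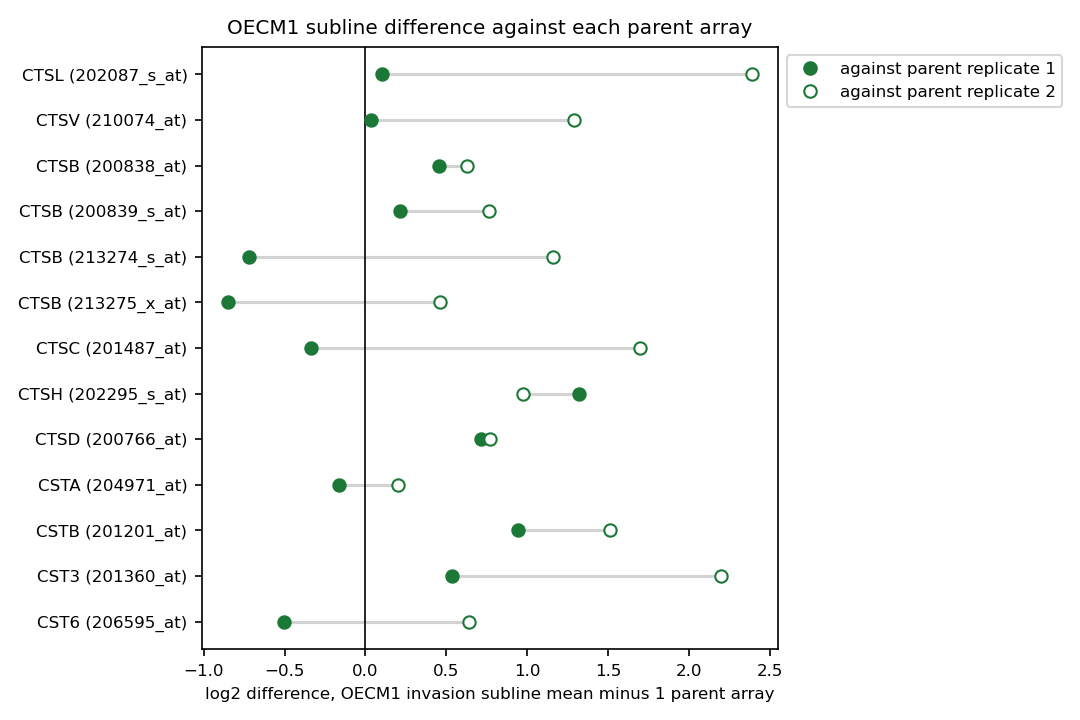
Log2 difference of each member, OECM1 invasion subline mean minus 1 parent array, against parent replicate 1 (filled) and parent replicate 2 (open), with a grey line joining the values of a member. CTSL lies at 0.10 and 2.39, while CTSD lies at 0.71 and 0.77.

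The subline difference itself varied between lines for CST6 and CTSB. An F test of whether the 3 differences were equal called CST6 (adjusted p = 0.0104) and CTSB on 200838_at (adjusted p = 0.0444), 2 of 13 members, against 0.602% of all tested probe sets. CST6 differed by -4.34 in Detroit, 1.33 in Fadu and 0.07 in OECM1, and CTSB by -2.09, 0.05 and 0.54. The second main CTSB probe set had an adjusted p of 0.0881. Both calls involve the arrays labelled Detroit invasion subline: with the OECM1 and Fadu differences alone compared, limma called 0 of 13 members and 0% of all tested probe sets, with CTSH and CSTB at unadjusted p = 0.0288 and 0.00763 (adjusted p = 1.00 each). The CST6 call was lost when Detroit parent replicate 1 was left out (adjusted p = 0.0626) and the CTSB call under 11 of the 12 fits that left out 1 array (adjusted p up to 0.180).

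Averaged over the 3 lines, with each line pair as a replicate, limma called 0 of 13 members, against 0% of all tested probe sets, with 1 member and 645 probe sets at an unadjusted p under 0.05. That member was CTSL, at 0.83 (SE 0.23, unadjusted p = 0.0183, adjusted p = 0.849). It was above 0 in each line, by 0.74 in Detroit, 0.49 in Fadu and 1.25 in OECM1, although its groups overlapped in Fadu. The OECM1 difference was 0.10 without parent replicate 2, and the Detroit difference uses the arrays labelled Detroit invasion subline.

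The parent lines differed from each other in CTSB, CST6, CTSH and CSTB. Detroit and OECM1 parents were both higher than the Fadu parent in CTSB and CST6, and the Detroit parent was higher than the OECM1 parent in CTSH and CSTB. With all arrays, no member was called lower in these comparisons, which share parent arrays with each other and with the subline comparisons.

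In the Detroit parent against the Fadu parent, 3 of 13 members were called, all higher, against 2.29% of all tested probe sets in either direction and 1.23% higher. CST6 read 9.75 and 8.62 in the Detroit parent, against 5.46 and 5.89 in the Fadu parent, 11.4-fold higher (log2 difference 3.51, SE 0.52, adjusted p = 0.00666). CTSB read 9.17 and 9.02, against 6.88 and 6.89 on 200838_at, and 9.70 and 9.80, against 7.84 and 7.50 on 200839_s_at. These were 4.62-fold and 4.23-fold higher (adjusted p = 0.00548 and 0.0124), with no overlap. CTSH read 10.87 and 10.55, against 7.58 and 8.36, a difference of 2.74 that was not called (adjusted p = 0.0967) but was called without the arrays labelled Detroit invasion subline (adjusted p = 0.0307). Leaving out Detroit parent replicate 1 or Fadu parent replicate 1 ended the CST6 call (adjusted p = 0.0642 and 0.0828). The 200838_at call ended without either Fadu parent array (adjusted p = 0.0644 and 0.0507), and the 200839_s_at call without any of the 4 arrays compared (adjusted p = 0.0559 to 0.111).

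In the Detroit parent against the OECM1 parent, 2 of 13 members were called, both higher, against 3.29% in either direction and 1.43% higher over all tested probe sets. CTSH read 10.87 and 10.55 in the Detroit parent, against 5.64 and 5.98 in the OECM1 parent, 29.9-fold higher (log2 difference 4.90, SE 0.74, adjusted p = 0.00529). This was the widest difference of any member between any pair of parents, and each parent's duplicates lay close together. CSTB read 10.38 and 10.90, against 8.68 and 8.11, 4.73-fold higher (log2 difference 2.24, SE 0.41, adjusted p = 0.0134). CTSC read 8.84 and 8.66, against 7.61 and 5.58, and its difference of 2.15 was not called (adjusted p = 0.0713). The main CTSB probe sets were higher in the Detroit parent without overlap, by 0.78 (200838_at) and 0.48 (200839_s_at), and neither was called. The dimmer CTSB probe sets went the other way, by -0.47 (213274_s_at) and -1.03 (213275_x_at), and neither was called. The CTSH call was lost when OECM1 parent replicate 1 was left out (adjusted p = 0.0538). The CSTB call was lost when replicate 2 of either parent was left out (adjusted p = 0.0958 for Detroit and 0.0557 for OECM1). With OECM1 parent replicate 1 left out, CTSC was called at 3.17 (adjusted p = 0.0133), and without replicate 2, CTSL was called at -2.30 (adjusted p = 0.0218) and CTSB on 213274_s_at at -1.41 (adjusted p = 0.0298).

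In the OECM1 parent against the Fadu parent, 3 of 13 members were called, all higher, against 2.43% in either direction and 1.32% higher over all tested probe sets. CST6 read 8.98 and 7.84 in the OECM1 parent, against 5.46 and 5.89 in the Fadu parent, 6.67-fold higher (log2 difference 2.74, SE 0.52, adjusted p = 0.0208). CTSB read 8.39 and 8.22, against 6.88 and 6.89 on 200838_at, and 9.55 and 9.00, against 7.84 and 7.50 on 200839_s_at. These were 2.68-fold and 3.04-fold higher (adjusted p = 0.0428 and 0.0412), near the threshold. Each CTSB call ended under 9 of the 12 fits that left out 1 array, with adjusted p up to 0.271 and 0.259. The CST6 call ended without Fadu parent replicate 1 or 2 or OECM1 parent replicate 1 (adjusted p = 0.195, 0.0806 and 0.128).

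In the same comparison, CTSH, CSTB, CTSC and CTSD had differences below 0 without a call. CTSH read 5.64 and 5.98 in the OECM1 parent, against 7.58 and 8.36 in the Fadu parent, with no overlap (log2 difference -2.16, SE 0.74, adjusted p = 0.188). It was called in a fit of only the arrays of these groups (adjusted p = 0.0419). CSTB read 8.68 and 8.11, against 9.66 and 9.61, also with no overlap (log2 difference -1.24, SE 0.41, adjusted p = 0.169). CTSC read 7.61 and 5.58, against 8.32 and 7.53, so its groups overlapped. Its difference of -1.33 (adjusted p = 0.324) was called at -2.34 without OECM1 parent replicate 1 (adjusted p = 0.0464), so that call rested on 1 parent array. CTSD differed by -0.28. Without OECM1 parent replicate 2, CTSB on 213274_s_at was called higher at 2.31 (adjusted p = 0.00588).

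**Figure D5:**
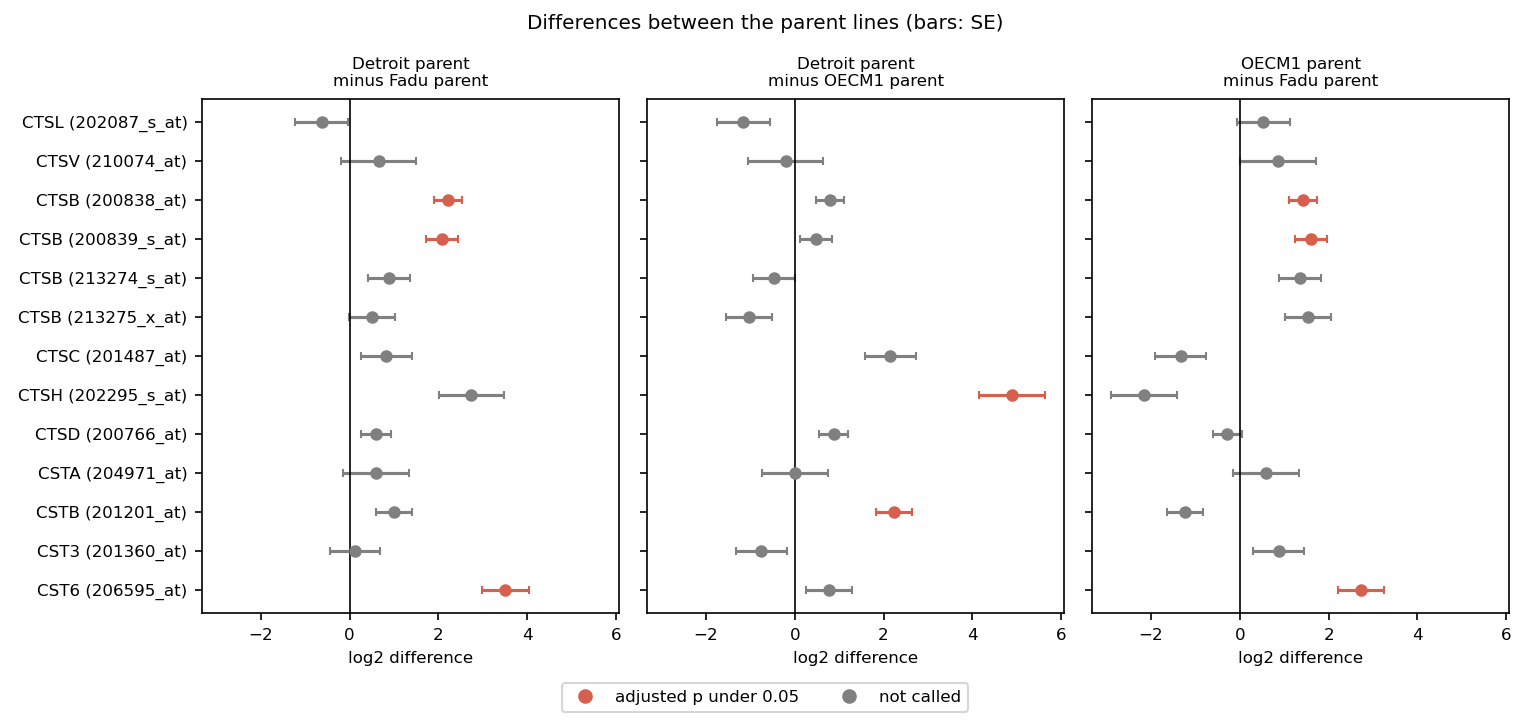
Log2 difference of each member between parents, with bars for the standard error and red points for adjusted p under 0.05. CTSH lies at 4.90 for Detroit minus OECM1, and CTSB and CST6 are red in both comparisons with the Fadu parent.

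Ordered by level, CST6 was highest in the Detroit parent, then the OECM1 subline, the OECM1 parent, the Fadu subline, the Fadu parent and the arrays labelled Detroit invasion subline. The first 3 of these overlapped, and each later neighbour was separated. CTSB on 200838_at was highest in the Detroit parent and the OECM1 subline, which overlapped, then in the OECM1 parent. At the bottom, the Fadu subline overlapped with the Detroit-labelled subline above it and with the Fadu parent below it, but the Detroit-labelled subline and the Fadu parent were separated. CTSH stood alone in the Detroit parent, and the other groups overlapped with their neighbours, except that the lowest, the OECM1 parent, was separated from the Fadu subline next to it. CST3 and CTSL were highest in the OECM1 subline, and CTSL was lowest in the Detroit parent. CTSD had the narrowest range of group means, 0.88, and CTSH the widest, 4.90.

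Some members followed each other over the 12 arrays, which share 3 lines and duplicates, so these correlations are descriptions. CTSB (200838_at) and CST6 correlated at 0.882, CTSL and CST3 at 0.799, and CTSH and CSTB at 0.769. Among 9000 genes searched, CST6 was most like FN1 (0.925), EIF5B (0.925) and IGFBP7 (0.920), and CTSB (200839_s_at, its brightest probe set) most like CLASP1 (0.967), INPP4B (0.950) and FAT1 (0.949). CTSH was most like MOCOS (0.901), IGFBP3 (0.892) and ASS1 (0.885), and CSTB was most like ASS1 (0.869), BBLN (0.839) and GCNT3 (0.837). CST3 followed PLAUR (0.946), SGCB (0.945) and RRBP1 (0.930), and CTSL followed TEX2 (0.927), SLC39A6 (0.925) and HBEGF (0.920). For CTSV the nearest were HAUS7 (0.925), PSMC3IP (0.916) and CDC25C (0.873), and for CTSC they were TSPAN13 (0.897), SLC27A3 (0.866) and MMP1 (0.865). For CSTA they were SCD5 (0.892), CDC73 (0.879) and FGFR2 (0.869), and for CTSD PIK3IP1 (0.891), LHFPL2 (0.835) and CDK14 (0.835).

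Around the members, 5 lists covered other lysosomal proteases, other inhibitors, lysosomal enzymes and membrane proteins, lysosomal sorting and acidification, and cornified envelope proteins. Of 15 tested probe sets of other cathepsins and lysosomal proteases, 2 were lower on the arrays labelled Detroit invasion subline than in the Detroit parent, against 1.72% of all tested probe sets, and 0 were higher. These were the lysosomal carboxypeptidases PRCP (4.28-fold lower, adjusted p = 0.0227) and SCPEP1 (3.03-fold lower, adjusted p = 0.0421). The list's median was -0.13, against -0.01 over all tested probe sets. Of 35 probe sets of lysosomal enzymes and membrane proteins and of 7 of other inhibitors, 0 were called in any comparison of groups. The medians of these lists in the Detroit comparison were 0.26 and -0.20.

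Of 29 probe sets of sorting and acidification, 1 was called on the arrays labelled Detroit invasion subline, a share near the 3.02% of all tested probe sets. It was MITF, a transcription factor of the family that drives lysosomal genes (2.75-fold lower, adjusted p = 0.0395). MITF was also higher in the Detroit parent and in the OECM1 parent than in the Fadu parent (2.78-fold and 3.53-fold, adjusted p = 0.0458 and 0.0159). The proton pump subunit ATP6V1A was 4.27-fold higher in the Detroit parent than in the OECM1 parent (adjusted p = 0.0276). Another subunit, ATP6V1H, was 4.82-fold lower in the OECM1 parent than in the Fadu parent (adjusted p = 0.00711). Of the 29, 1 was called between the Detroit and Fadu parents and 1 between the Detroit and OECM1 parents. Between the OECM1 and Fadu parents, 1 was called higher and 1 lower. In the same order, 2.29%, 3.29% and 2.43% of all tested probe sets were called, so 1 of 29 is a share near the background. The median of this list in the Detroit comparison was 0.25.

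Of 8 cornified envelope probe sets, 1 was higher on the arrays labelled Detroit invasion subline than in the Detroit parent. Over all 15124 tested, 197 were called higher and 3.02% were called in either direction. The 1 was TGM1, which cross-links the envelope (3.86-fold, adjusted p = 0.0223). Sciellin, SCEL, an envelope precursor, was higher in the Detroit parent and in the OECM1 parent than in the Fadu parent (3.34-fold and 7.70-fold, adjusted p = 0.0189 and 0.00109). It was the 1 of 8 called in each, against 1.23% and 1.32% of all tested probe sets called higher. The list's median in the Detroit comparison was -0.01. In the Fadu and OECM1 comparisons of subline with parent, limma called 0 probe sets of these 5 lists, with medians between -0.29 and 0.26.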

How the data were processed

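Total RNA from 12 samples was measured, 1 Affymetrix array each, in 6 groups of 2. Trizol extracts were labelled with biotin, per the labels. The deposited values are log2 values that the authors made with RMA, which corrects background, gives the arrays one distribution and summarises the probes of a probe set, and Partek version 7 was used, per the submitters' processing notes. RMA compresses low values, and the values carry no detection calls. The number of arrays limits the precision.

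Of 22215 probe sets that are not controls, 15124 with at least 2 arrays above the 40th percentile were tested. A mean for each group was fitted with limma 3.58.1 in R 4.3.3 (lmFit, eBayes with an intensity trend), and p-values were adjusted by Benjamini-Hochberg over all 15124, with a threshold of 0.05. An F test compared the 3 subline differences, and the mean difference over the 3 lines was tested on the 6 group means, blocked by line. Named genes were all members, up to 4 called genes of each list, and the 3 genes most correlated with each member. The members and lists were chosen with earlier results of these data known. Alternatives changed the filter, moderation, array weights, scaling, covariates, replicate block, samples and probe sets per gene. The fits were tested on simulated data. Names came from the platform annotation, where 19065 probe sets had 1 symbol, 1043 had several and 2107 had none.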

Additional observations from a re-analysis of the deposited data

Results flagged for a closer look

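For 2 probe sets the difference between subline and parent was not the same in the 3 lines, by an F test in the fit over all tested probe sets. CST6 had an adjusted p of 0.0104, with log2 differences of -4.34 in Detroit, 1.33 in Fadu and 0.07 in OECM1. The Detroit arrays were 5.21 and 4.47 in the labelled subline, against 9.75 and 8.62 in the parent. CTSB on 200838_at had an adjusted p of 0.0444, with differences of -2.09 in Detroit, 0.05 in Fadu and 0.54 in OECM1. Beside these, CST6 averaged 4.84 ± 0.52 on the Detroit-labelled subline arrays and 5.68 ± 0.30 in Fadu parent cells, while CTSB averaged 7.00 ± 0.04 on those subline arrays and 6.88 ± 0.01 in the Fadu parent (SD, n = 2 each).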

How the results depend on the processing

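Over the alternatives run, 13 called results (11 differences between groups and 2 F tests) gave 301 values, of which 235 kept their direction and their call, 66 kept their direction without a call and 0 reversed. Of 2363 values of uncalled results, 22 became called and 60 changed sign while uncalled. Where 1 array was left out, the count of members called ranged from 2 to 5 for Detroit (3 with all arrays), 0 to 4 for the Detroit against the Fadu parent (3), 1 to 3 for the Detroit against the OECM1 parent (2), 0 to 3 for the OECM1 against the Fadu parent (3) and 0 to 2 for the difference between lines (2). It stayed at 0 for Fadu, OECM1, the Detroit-labelled subline against the Fadu parent, and the average. In the comparisons with a range, calls over all tested probe sets also rose and fell with the array left out. The ranges therefore do not single out the members. With only the arrays of the groups compared, 0 members were called in Detroit (CST6 adjusted p = 0.0655) and 44 probe sets in all, against 457. Array weights left 1 called for OECM1 against Fadu parents and 1 for the difference between lines, and the gene-level fit also left 1 for that test. Over all tested features these fits called 272 and 64 of 15124, and 64 of 9001.

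With the replicate block (replicate number within each line), 1 member was called in Detroit, 1 in each comparison of parents and 1 in the test between lines, and the calls over all probe sets were 183 in Detroit, against 457 without it, 114 against 347, 214 against 497 and 133 against 367 for Detroit and Fadu, Detroit and OECM1, and OECM1 and Fadu parents. The cause was not tested. Same-numbered arrays deviated oppositely in each line (r = -0.17 in Detroit, -0.41 in Fadu and -0.40 in OECM1). The labels do not say whether the numbers pair the samples, and these values cannot decide it. A crossed block, chosen after seeing the data, called 4 members in Detroit, 1 for OECM1 against Fadu parents and 0 between lines. Over all tested probe sets it called 749, 624 and 109, against 457, 367 and 91 without a block. The block by replicate number called 30 between lines. The average was not fitted with the block, the ACTB covariate or only the arrays compared. The arrays labelled Detroit invasion subline were needed for the average and for the test between lines.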
